A study of Oryctolagus cuniculus with 6 samples.

Results

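Aldo-keto reductases and the related carbonyl reductases were taken from the gene table of limbal stem cells (LSCs) grown from rabbit corneas. A gene was a member when its deposited GO terms held any of 3 activities: a progesterone-type steroid dehydrogenase, alditol:NADP+ reductase (the aldose reductase activity), or prostaglandin E2 reductase. The rule found 28 of 22190 genes, of which 13 carried the steroid term, 8 the alditol term and 17 the prostaglandin term. Steroid and prostaglandin terms occurred together on 10 of them. The terms, and with them the set, were selected on measured fold changes between preconditioned and fresh libraries, so the members' values are given as a description, with no p value for any of them.

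Primary LSCs were the cells that grew out of rabbit limbal explants in keratinocyte culture medium. In the fresh group the explants came from unfrozen corneas. In the preconditioned group the cornea had been held in liquid nitrogen for 7 days in a cryomedium of DMEM/F12, serum and DMSO with IL-1β at 10 ng/mL, then thawed and cultured in the same way. Freezing, storage, the cryomedium and IL-1β were applied together and cannot be told apart. There were 3 libraries per group, each from polyadenylated RNA. Strain, age and sex of the rabbits, and whether a library came from 1 or several animals, were not given in the sources used here, so the spread between libraries may be partly technical.

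Aldo-keto reductases use NADPH to turn aldehydes and ketones into alcohols. The AKR1C branch reduces steroids and prostaglandins, and its prostaglandin E2 9-reductases (symbol PGER) convert prostaglandin E2 into prostaglandin F2α. These PGER genes are enzymes and differ from the prostaglandin E receptors, PTGER1 to PTGER4. The AKR1B branch includes aldose reductase, the entry step of the polyol pathway from glucose to sorbitol, an enzyme studied in the corneal epithelium and lens in diabetes. Carbonyl reductase 1 (CBR1) belongs to another fold, the short-chain dehydrogenases, but also reduces prostaglandin E2 and quinones.

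Libraries held 31952352 to 34327534 counts on genes. A principal component with 55.7% of the variance placed the fresh group at -39.3 to -29.5, preconditioned replicates 2 and 3 at 44.1 and 53.1, and preconditioned replicate 1 at 2.27, between the groups. Several values are therefore also given without preconditioned replicate 1. The epithelial markers were present, with a summed level over 7 of 9 markers of 9752 to 13481 CPM (counts scaled to one common library total) in fresh libraries and 9162 to 13496 CPM in preconditioned libraries. KRT5, a basal keratin, made up most of that sum. TP63, the limbal stem cell marker, stood at 237 ± 10.1 CPM in fresh LSCs and 139 ± 38.9 CPM in preconditioned LSCs (log2 fold change -0.77, SE 0.19, adjusted p = 0.0588, edgeR's quasi-likelihood test), with every preconditioned library below the fresh ones. EPCAM stood at 82.9 ± 7.74 and 118 ± 13.7 CPM (log2 fold change 0.50, SE 0.13, adjusted p = 0.0601), with every preconditioned library above. The 9 stromal fibroblast markers summed to 472 to 1035 CPM and 778 to 1629 CPM, and the 5 immune markers, mostly CD68, to 95.7 to 131 CPM and 123 to 307 CPM. The 3 conjunctival markers, mostly KRT19 and KRT7, summed to 2651 to 4677 CPM and 1908 to 4619 CPM. Of these, KRT13 stood at 61.0 CPM in preconditioned replicate 1 and at 3.92 to 20.6 CPM in the other libraries. Over all marker lists, edgeR's quasi-likelihood test called no gene at an adjusted p of at most 0.05 with a log2 fold change of at least 1 in size. At an unadjusted p under 0.05 there were 3 epithelial markers and 1 immune marker, and DESeq2 called 1 immune marker. The epithelial ones were TP63, EPCAM and PAX6, the last with a log2 fold change of 0.81 (SE 0.28) and overlapping groups. Melanocyte markers summed to at most 0.395 CPM in any library. The part of other cell types in the values below was not tested, and in bulk RNA fewer cells of a type cannot be told apart from less RNA per cell.

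Of the 28 members, 15 had enough counts to be tested, each with at least 27 counts in every library, and 13 had at most 15 counts in any library. In the preconditioned group 6 of the 15 passed the cutoffs as higher: PGER4, PGER6, PGER8, AKR1B1, AKR1B10 and the non-coding LOC127491821. Over all 15029 tested genes the share past the same cutoffs was 2.29%, made up of 1.08% higher and 1.20% lower. No member passed as lower in edgeR, and 7 were higher and 0 lower at an unadjusted p under 0.05, counts that rest on the contrast used to select them. Over all tested genes 30.6% were under that p, 15.5% higher and 15.1% lower. DESeq2 also put 6 members past the cutoffs as higher and none as lower, beside 7.64% of its 15724 tested genes, 3.56% higher and 4.09% lower. A log2 fold change of at least 1 was seen in 6 members, against 6.56% of all tested genes, and one of at most -1 in no member, against 7.08%. The groups did not overlap in 7 members that were higher and 1 that was lower. Over all tested genes that held for 36.7%, with 17.9% higher and 18.8% lower. The median log2 fold change of the tested members was 0.41, beside 0.01 over all tested genes. Leaving out 1 library moved the number of members past the cutoffs between 0 and 8. It was 2, 1 and 0 without fresh replicates 1, 2 and 3, and 8, 0 and 1 without preconditioned replicates 1, 2 and 3. The genes past the cutoffs over the whole table, 344 with all libraries, numbered 19, 14 and 47 and then 1546, 16 and 72 in the same fits.

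**Figure D1:**
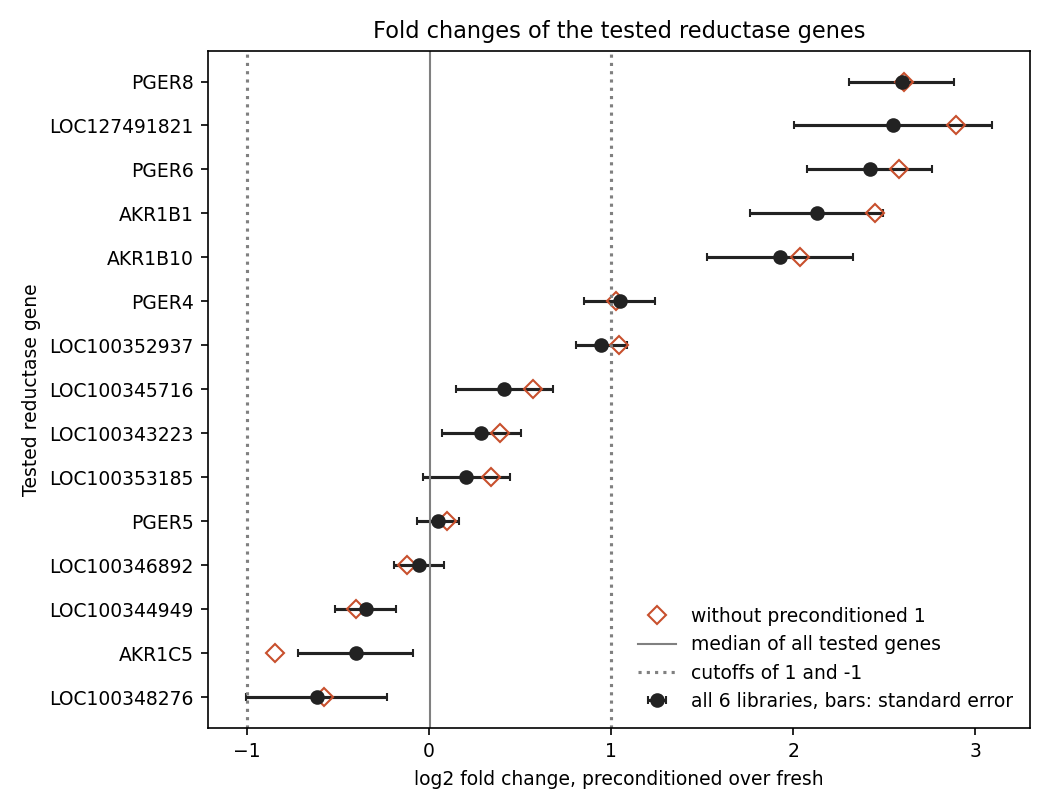
Log2 fold changes of the 15 tested members, preconditioned over fresh, in order of size. Filled circles with bars of 1 standard error use all 6 libraries, open diamonds leave out preconditioned replicate 1, the solid line marks the median of all tested genes and dotted lines the cutoffs of 1 and -1. The circles of 6 members lie beyond 1 and none lies beyond -1.

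The tested AKR1C and PGER copies, AKR1C5 included, all carried the prostaglandin E2 reductase term. Of these, PGER4, PGER6 and PGER8 were higher in the preconditioned group. PGER4, described in the table as a 9-reductase-like enzyme, stood at 70.1, 45.0 and 42.7 CPM in the fresh libraries and at 110, 106 and 109 CPM in the preconditioned ones. Every preconditioned library was above the highest fresh library, fresh replicate 1, and the spread was smaller in the preconditioned group. Its log2 fold change was 1.05 (SE 0.20, n = 3 per group), just past the cutoff of 1. With library size alone it was 0.88 and with limma on log2(FPKM + 1) 0.90, both short of the cutoff. It also fell short without fresh replicate 2, at 0.94, or fresh replicate 3, at 0.91, and was 1.31 without fresh replicate 1. PGER6, a 9-reductase, stood at 13.4, 5.60 and 7.98 CPM in fresh libraries and at 36.2, 56.5 and 51.5 CPM in preconditioned libraries. The lowest preconditioned value, in replicate 1, was still above every fresh value, and the log2 fold change was 2.42 (SE 0.34).

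PGER8, another 9-reductase, was a low-level copy with 1.28, 0.900 and 0.820 CPM in fresh LSCs and 5.84, 6.07 and 6.22 CPM in preconditioned LSCs. Its 3 preconditioned values lay close together, and the log2 fold change was 2.59 (SE 0.29). With limma on log2(FPKM + 1) it was 1.47. Preconditioned replicate 1, which fell between the groups over all genes, was with its group for PGER4 and PGER8.

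AKR1C5 and PGER5 did not follow that pattern. AKR1C5, described as dihydrodiol dehydrogenase and hydroxysteroid dehydrogenase, carried the prostaglandin E2 reductase term as well as the steroid term. It stood at 54.6, 43.4 and 35.2 CPM in fresh libraries and 51.0, 25.2 and 24.5 CPM in preconditioned libraries. Preconditioned replicates 2 and 3 were below every fresh library, while replicate 1 was within the fresh range. The log2 fold change was -0.40 (SE 0.32), with -0.85 without preconditioned replicate 1 and -0.22 without preconditioned replicate 3. PGER5, a 9-reductase-like enzyme, stood at 51.6, 50.1 and 44.6 CPM and at 46.4, 51.2 and 53.9 CPM, so the groups overlapped. Its log2 fold change of 0.05 (SE 0.12) turned to -0.12 when libraries were scaled by library size alone.

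**Figure D2:**
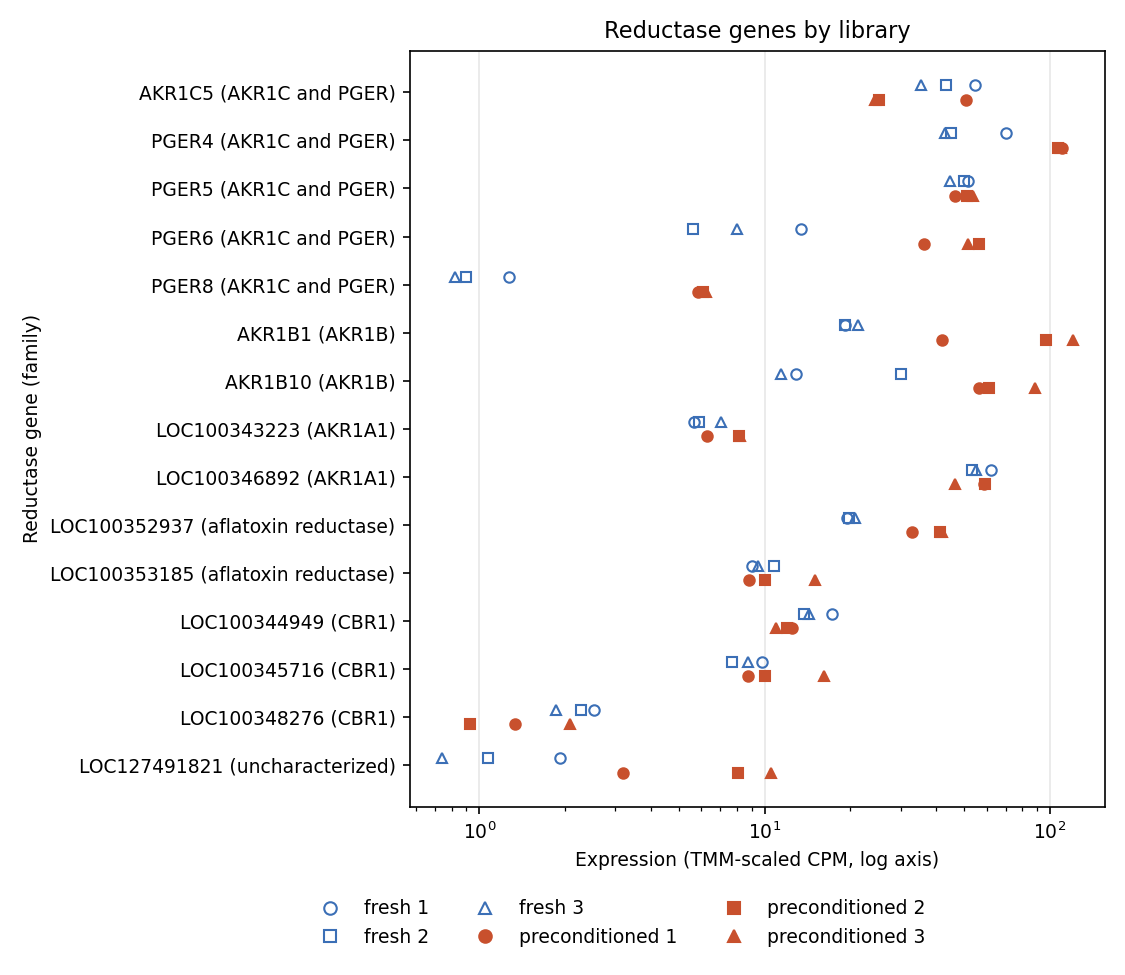
Level of each tested member in each library, in CPM on a log axis, by family, with open blue symbols for fresh and filled red symbols for preconditioned libraries. PGER4, PGER6, PGER8, AKR1B1 and AKR1B10 show separate groups, and AKR1C5 and PGER5 show overlapping ones.

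Near-identical copies can share reads, and how reads with several matches were counted is not given in the sources used here, so the copies are also described summed. The 13 AKR1C and PGER members summed to 191, 146 and 132 CPM in the fresh libraries and to 250, 246 and 246 CPM in the preconditioned ones. The summed level was therefore 156 ± 31.1 CPM in fresh LSCs and 248 ± 2.47 CPM in preconditioned LSCs (mean ± SD, n = 3), a 1.59-fold higher mean with no overlap between the libraries. When the counts of the 6 genes described as prostaglandin E2 9-reductase were added before fitting, their log2 fold change was 2.43 (SE 0.32). For the 3 genes described as 9-reductase-like it was 0.65 (SE 0.14).

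The makeup of this sum also differed. AKR1C5 supplied 28.3 ± 1.55% of it in fresh libraries and 13.5 ± 5.93% in preconditioned libraries, with 20.4% in preconditioned replicate 1, 10.3% in replicate 2 and 9.93% in replicate 3. PGER5 supplied 31.7 ± 4.12% and 20.4 ± 1.71%. The share of PGER4 was 33.3 ± 2.95% in fresh LSCs and 43.9 ± 0.618% in preconditioned LSCs. PGER6 went from 5.63 ± 1.62% to 19.4 ± 4.44%, and PGER8 from 0.635 ± 0.0267% to 2.44 ± 0.0999%. PGER4, PGER5 and AKR1C5 were the leading transcripts of the fresh group, whereas in the preconditioned group PGER4 led and PGER6 was near the level of PGER5.

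**Figure D3:**
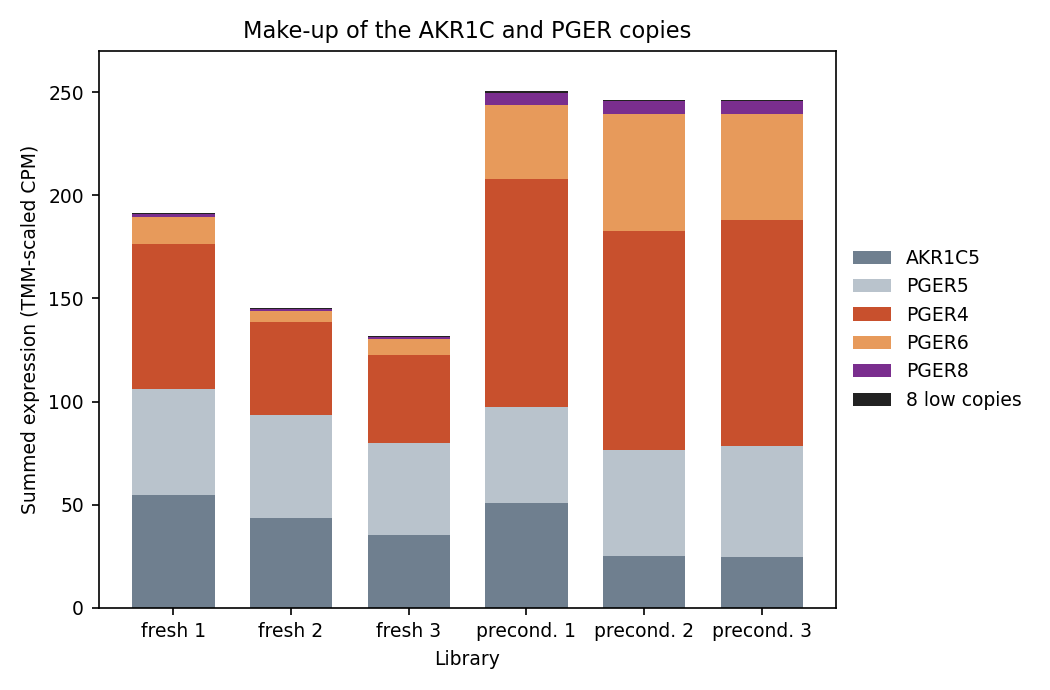
Summed level of the AKR1C and PGER members in each library, in CPM, with the part of each copy stacked. The preconditioned bars reach 246 to 250 CPM and hold a wider PGER6 band and, in replicates 2 and 3, a narrower AKR1C5 band than the fresh bars.

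The other 8 AKR1C and PGER copies were at or near 0. LOC100352971, an AKR1C1 copy, had 0 counts in every fresh library and at most 1 in a preconditioned library. PGER2 had 10, 4 and 10 counts in fresh libraries and 12, 6 and 1 in preconditioned libraries. LOC103345171, a 9-reductase, had 0, 1 and 0 counts in fresh LSCs and 1, 12 and 14 in preconditioned LSCs. Those counts lay in preconditioned replicates 2 and 3. Without preconditioned replicate 1 the copy came past the count filter through the group in which it was high, so its place among the 8 members past the cutoffs in that setting is no support for a difference. With no filter on low counts it did not pass the cutoffs.

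In the rabbit assembly mOryCun1.1, used here for the order of genes alone, 26 of the 28 members were found. Of the 22177 gene identifiers of the table, 19462 were matched. A run of 10 members had no other matched gene of the table between them, but 9 further protein-coding genes of the assembly inside it. It held AKR1C5, PGER8, PGER6, PGER4, LOC103345169, PGER2, LOC100352971, LOC103345171, AKR1C1L and LOC108176284. In the order of the matched genes, the 3 copies that were higher thus followed each other after AKR1C5, which was not higher. The nearest tested genes outside the run did not pass the cutoffs. LOC100350534 had a log2 fold change of 0.64 (SE 0.13, adjusted p = 0.0452, edgeR's quasi-likelihood test) and TUBAL3 one of 0.12 (SE 0.31, adjusted p = 0.816). PGER5 lay apart from the run, between RHOU and KLF6, and was also the copy with the smallest fold change. In that assembly PGER4 overlaps LOC103345169, and both PGER4 and PGER6 overlap LOC103345168, a protein-coding gene outside the table, so reads of these genes may not be separable.

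Both AKR1B genes were higher in the preconditioned group. AKR1B1, listed in the table as aldo-keto reductase family 1 member B, the aldose reductase, stood at 19.1, 19.1 and 21.2 CPM in the fresh libraries and at 41.9, 97.1 and 121 CPM in the preconditioned ones. The fresh libraries were nearly alike, and preconditioned replicate 1 lay nearest to them but above all 3. Its log2 fold change was 2.13 (SE 0.36), with 2.45 (SE 0.13) without preconditioned replicate 1 and 1.81 without preconditioned replicate 3. AKR1B10, which reduces retinaldehyde and lipid aldehydes, stood at 12.9, 30.0 and 11.4 CPM and at 56.4, 61.1 and 88.7 CPM. Fresh replicate 2 was well above the other fresh libraries and still below every preconditioned one.

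The log2 fold change of AKR1B10 was 1.93 (SE 0.40), with 2.50 without fresh replicate 2 and 1.68 without fresh replicate 3. Together the AKR1B genes came to 37.9 ± 9.69 CPM in fresh libraries and 155 ± 55.6 CPM in preconditioned libraries, 4.10-fold higher. AKR1B1 made up 54.5 ± 13.8% of the pair in fresh LSCs and 53.9 ± 9.90% in preconditioned LSCs, so the makeup did not shift beyond its spread. In mOryCun1.1, AKR1B1 and AKR1B10 were not adjacent among the table's genes. LOC103348646, a long non-coding RNA between them that overlaps AKR1B10, had a log2 fold change of 1.05 (SE 0.48, adjusted p = 0.189). AKR1B1 overlaps LOC127491822, another long non-coding RNA of the table, so reads of these genes may not be separable. SLC35B4 on the far side of AKR1B1 stood at 0.06 (adjusted p = 0.771) and BPGM beyond AKR1B10 at 0.53 (adjusted p = 0.113).

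LOC127491821 is listed as uncharacterized and non-coding, yet it carries the aldose reductase term. It stood at 1.91, 1.07 and 0.738 CPM in fresh libraries and at 3.19, 8.09 and 10.5 CPM in preconditioned libraries. No fresh library reached the lowest preconditioned one, replicate 1. The log2 fold change was 2.55 (SE 0.55), with 2.90 without preconditioned replicate 1 and 2.19 without preconditioned replicate 3. With limma on log2(FPKM + 1), a scale that understates changes of low genes, it was 0.84 and the cutoffs were not passed. Its level was 3.48 to 10.02% of that of AKR1B1 in the fresh libraries and 7.61 to 8.70% in the preconditioned ones. It was not matched to mOryCun1.1, and whether its reads come from AKR1B1 was not tested. LOC100350930, also uncharacterized, had a single count over all 6 libraries.

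The AKR1A1 genes encode aldehyde reductase, which reduces glucuronate and many other aldehydes. LOC100346892, the main copy, stood at 62.3, 53.2 and 55.1 CPM in fresh LSCs and 58.8, 59.2 and 46.3 CPM in preconditioned LSCs, with overlap and a log2 fold change of -0.05 (SE 0.14). LOC100343223 stood at 5.65, 5.88 and 7.02 CPM and at 6.30, 8.12 and 8.23 CPM, also with overlap, and its log2 fold change was 0.29 (SE 0.22). Their sum was 63.1 ± 4.53 CPM in fresh libraries and 62.3 ± 6.79 CPM in preconditioned libraries. With both added before fitting, the log2 fold change was -0.02 (SE 0.12), the smallest in size of the 4 sets of copies joined in this way.

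Aflatoxin aldehyde reductases clear dialdehydes and other reactive carbonyls. LOC100352937, member 4, stood at 19.5, 19.8 and 20.8 CPM in the fresh libraries and 32.8, 41.3 and 41.9 CPM in the preconditioned ones. All preconditioned libraries were above all fresh ones, and the log2 fold change of 0.95 (SE 0.14) was just below the cutoff of 1, whereas PGER4 at 1.05 was just above it. Without preconditioned replicate 1 it was 1.04, and without preconditioned replicate 3 it was 0.89. LOC100353185, member 3, stood at 9.07, 10.8 and 9.48 CPM and at 8.82, 10.1 and 15.0 CPM. Only preconditioned replicate 3 exceeded the fresh range, and the log2 fold change was 0.20 (SE 0.24). It was 0.34 without preconditioned replicate 1 and turned to -0.05 without replicate 3.

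The CBR1-type genes were 7, and 3 of them were tested. LOC100344949, the most abundant, stood at 17.2, 13.7 and 14.3 CPM in fresh LSCs and 12.5, 12.0 and 10.96 CPM in preconditioned LSCs. It was the only tested member whose preconditioned libraries were all below the fresh ones, with a log2 fold change of -0.35 (SE 0.16), inside the cutoff. LOC100345716 stood at 9.82, 7.70 and 8.72 CPM and at 8.76, 10.1 and 16.2 CPM, with overlap and a log2 fold change of 0.41 (SE 0.27). It was 0.57 without preconditioned replicate 1 and 0.11 without replicate 3, the library with the highest level.

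LOC100348276 stood at 2.52, 2.28 and 1.86 CPM and at 1.34, 0.927 and 2.07 CPM, also with overlap, and its log2 fold change was -0.62 (SE 0.39). It overlaps LOC100344949 and LOC100345202 in mOryCun1.1. The gene named CBR1 itself had 2, 1 and 2 counts in fresh libraries and 13, 4 and 7 in preconditioned libraries, too few to be tested. Summed, the CBR1 genes came to 26.3 ± 3.34 CPM in fresh LSCs and 25.5 ± 3.76 CPM in preconditioned LSCs. The neighbouring carbonyl reductase CBR3, which does not carry any of the terms, had a log2 fold change of -0.99 (SE 0.33, adjusted p = 0.1001).

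Levels of different genes were compared per length, as FPKM. In the fresh group PGER4 was highest at 45.3 ± 12.8 FPKM, followed by AKR1C5 at 38.4 ± 8.20, LOC100346892 at 34.0 ± 2.75 and PGER5 at 33.3 ± 2.39. Neighbours among these 4 differed by less than the larger of their SDs. AKR1B1 at 16.1 ± 1.06 FPKM and AKR1B10 at 15.1 ± 8.59 FPKM came next. In the preconditioned group PGER4 stood at 83.3 ± 3.87 FPKM, AKR1B1 at 62.4 ± 28.9, AKR1B10 at 50.9 ± 13.3, PGER6 at 35.2 ± 6.99, PGER5 at 30.7 ± 2.14, LOC100346892 at 29.1 ± 3.76 and AKR1C5 at 26.0 ± 12.3. Neighbours in that order differed by less than the larger of their SDs, except AKR1B10 and PGER6. AKR1C5 went from rank 2 to rank 7 of the 28 members, and PGER6 from rank 9 to rank 4. Over all 28 members the summed level was 315 ± 34.9 CPM in fresh libraries and 548 ± 63.0 CPM in preconditioned libraries, 1.74-fold higher, with each preconditioned library above each fresh one.

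The genes outside the members whose log2 CPM followed PGER4 most closely over the 6 libraries included MYCBP, SFR1, RHOA and MINDY3. Their Pearson r was 0.994 to 0.999, which includes the difference between the groups and so describes 2 sets of 3 points. Of 15014 other tested genes, 190 had an r of at least 0.95. The log2 fold change of MYCBP was 0.61 (SE 0.14) and that of RHOA, a small GTPase of the cytoskeleton, 0.29 (SE 0.11), both below that of PGER4.

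The genes around the members were taken from lists of their pathways, with the members left out. Of 100 listed genes, 88 were in the table and 71 were tested. No gene of these lists passed as higher and 1 passed as lower, against 2.29% of all tested genes in either direction. At an unadjusted p under 0.05 there were 23 of 71, against 30.6% of all tested genes, and DESeq2 called 7 of the 77 it tested, against 7.64% of all genes it tested. These shares are the background for the counts of each list below. The median log2 fold change of the 71 was 0.22.

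Genes that make prostaglandins did not pass the test. Of the 7 tested with edgeR, 0 passed and 0 were under an unadjusted p of 0.05, and DESeq2 called 1 of the 8 it tested. PTGS2, the inducible cyclooxygenase, stood at 121, 172 and 294 CPM in fresh LSCs and 167, 510 and 276 CPM in preconditioned LSCs, with wide overlap and a log2 fold change of 0.70 (SE 0.47, adjusted p = 0.351). PTGS1, the constitutive form, had a log2 fold change of 0.31 (SE 0.46, adjusted p = 0.684). PTGES, the synthase that supplies prostaglandin E2 as the substrate of the 9-reductases, stood at 70.0 ± 11.3 and 85.4 ± 13.7 CPM (log2 fold change 0.29, SE 0.17, adjusted p = 0.282). The lowest of the genes tested in edgeR was PLA2G4A, the phospholipase that releases arachidonate, at -0.82 (SE 0.40, adjusted p = 0.219), and the highest was PTGIS, prostacyclin synthase, at 0.82 (SE 0.43, adjusted p = 0.234). The gene that DESeq2 called was PTGDS, prostaglandin D synthase, named after its values were seen. It did not pass edgeR's count filter and stood at 5.10, 0.225 and 3.47 CPM in fresh LSCs and 0.213, 0.0639 and 0.0987 CPM in preconditioned LSCs, so that fresh replicates 1 and 3 stood apart from the other 4 libraries.

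Among 7 tested genes of prostaglandin breakdown and transport, 0 passed with edgeR or DESeq2 and 3 were under an unadjusted p of 0.05. PTGR1, which reduces inactivated prostaglandins, had the highest log2 fold change, 0.73 (SE 0.18, adjusted p = 0.0552), with all preconditioned libraries above the fresh ones. HPGD, the main inactivating dehydrogenase, had the lowest, -1.25 (SE 0.88, adjusted p = 0.365), at 0.0304 to 1.24 CPM over the libraries. PTGR3 was the middle one at -0.22 (SE 0.10, adjusted p = 0.194). Of the 5 tested prostanoid receptors, 0 passed with edgeR or DESeq2 and 1 was under an unadjusted p of 0.05. That was PTGER3, at 0.122 ± 0.0131 CPM in fresh libraries and 0.476 ± 0.170 CPM in preconditioned libraries (log2 fold change 1.94, SE 0.51, adjusted p = 0.0650). PTGFR, the receptor of the product prostaglandin F2α, had a log2 fold change of 0.89 (SE 0.84, adjusted p = 0.503), and PTGER4 one of -0.31 (SE 0.22, adjusted p = 0.384).

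Of the 17 genes of the steroid list tested with edgeR, 0 passed and 8 were under an unadjusted p of 0.05, and DESeq2 called 2 of the 20 it tested, against 30.6% and 7.64% of all genes tested by each. SRD5A1, a steroid 5-alpha-reductase, was lowest at -0.53 (SE 0.25, adjusted p = 0.199). NR3C1, the glucocorticoid receptor, was in the middle at 0.39 (SE 0.12, adjusted p = 0.0849), and HSD17B2 was highest at 1.54 (SE 0.97, adjusted p = 0.318), and at 0.11 without preconditioned replicate 1. DESeq2 called HSD11B2 and NR3C2, named after their values were seen. HSD11B2, which inactivates glucocorticoid, had 2, 4 and 3 counts in fresh libraries and 6, 49 and 10 counts in preconditioned libraries and did not pass edgeR's count filter. NR3C2, the mineralocorticoid receptor, had a log2 fold change of 1.42 in edgeR (SE 0.49, adjusted p = 0.1097), with all preconditioned libraries above the fresh ones. HSD11B1, which regenerates active glucocorticoid and was chosen after its values were seen, stood at 26.5 ± 1.96 and 49.7 ± 14.4 CPM (log2 fold change 0.91, SE 0.21, adjusted p = 0.0515).

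In the polyol and aldehyde list, 0 of 15 tested genes passed with edgeR, 5 were under an unadjusted p of 0.05, and DESeq2 called 2. SORD, sorbitol dehydrogenase, follows aldose reductase in the polyol pathway. It stood at 10.02, 11.9 and 9.84 CPM in fresh LSCs and 8.06, 3.16 and 2.57 CPM in preconditioned LSCs, so that every preconditioned library was below the fresh ones. Its log2 fold change was -1.20 (SE 0.43, adjusted p = 0.118), and without preconditioned replicate 1 it was -1.90 (SE 0.23, adjusted p = 0.00525, edgeR's quasi-likelihood test), past the cutoffs in the fit in which 1546 genes of the whole table passed. With any other single library left out, no gene of the pathway lists passed, ALDH1A1, HMOX1 and TKT included. AKR1B1 was highest in the same libraries, preconditioned replicates 2 and 3, in which SORD was lowest. KHK, ketohexokinase, was the middle gene at -0.06 (SE 0.32, adjusted p = 0.916).

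ALDH1A1, which oxidises retinaldehyde and is abundant in cornea, was the highest of that list. It stood at 1241, 1057 and 1162 CPM in fresh libraries and at 2204, 1668 and 3118 CPM in preconditioned libraries, with no overlap. Its log2 fold change was 1.01 (SE 0.23) with an adjusted p of 0.0505, just over the cutoff, and 1.04 (adjusted p = 0.0329) without preconditioned replicate 1. With all 6 libraries it passed the cutoffs in DESeq2, without a filter on low counts and with the stricter filter. ALDH1A1 and SORD were the 2 genes of this list that DESeq2 called.

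NRF2 is a transcription factor of the response to oxidants and electrophiles, and several AKR genes are known among its targets in other species. Of the 18 tested genes of this list, 1 passed, as lower, 6 were under an unadjusted p of 0.05, and DESeq2 called 2. TKT, transketolase of the pentose phosphate pathway and abundant in cornea, fell from 1329.6 ± 247 to 639 ± 163 CPM (log2 fold change -1.06, SE 0.23, adjusted p = 0.0476). It passed without preconditioned replicate 1 too, but not when any other library was left out or with the replicate block. NQO1, the quinone reductase often used as the marker of NRF2 activity, stood at 44.7 ± 4.10 and 50.6 ± 2.09 CPM (log2 fold change 0.18, SE 0.11, adjusted p = 0.321). The remaining genes named here were chosen after their values were seen. TALDO1, transaldolase of the pentose phosphate pathway, passed the adjusted p but not the fold change cutoff, at 0.52 (SE 0.11, adjusted p = 0.0461). HMOX1, heme oxygenase, stood at 41.6, 45.7 and 68.5 CPM in fresh LSCs and 109, 597 and 223 CPM in preconditioned LSCs (log2 fold change 2.58, SE 0.61, adjusted p = 0.0568), and it passed without preconditioned replicate 1 at 2.97 (adjusted p = 0.0164).

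Of the other aldo-keto reductases, which do not carry the 3 terms, KCNAB2 and KCNAB3 were tested. These potassium channel beta subunits had log2 fold changes of -0.11 (SE 0.13, adjusted p = 0.602) and 0.11 (SE 0.51, adjusted p = 0.907), and neither was under an unadjusted p of 0.05 or called by DESeq2.

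**Figure D4:**
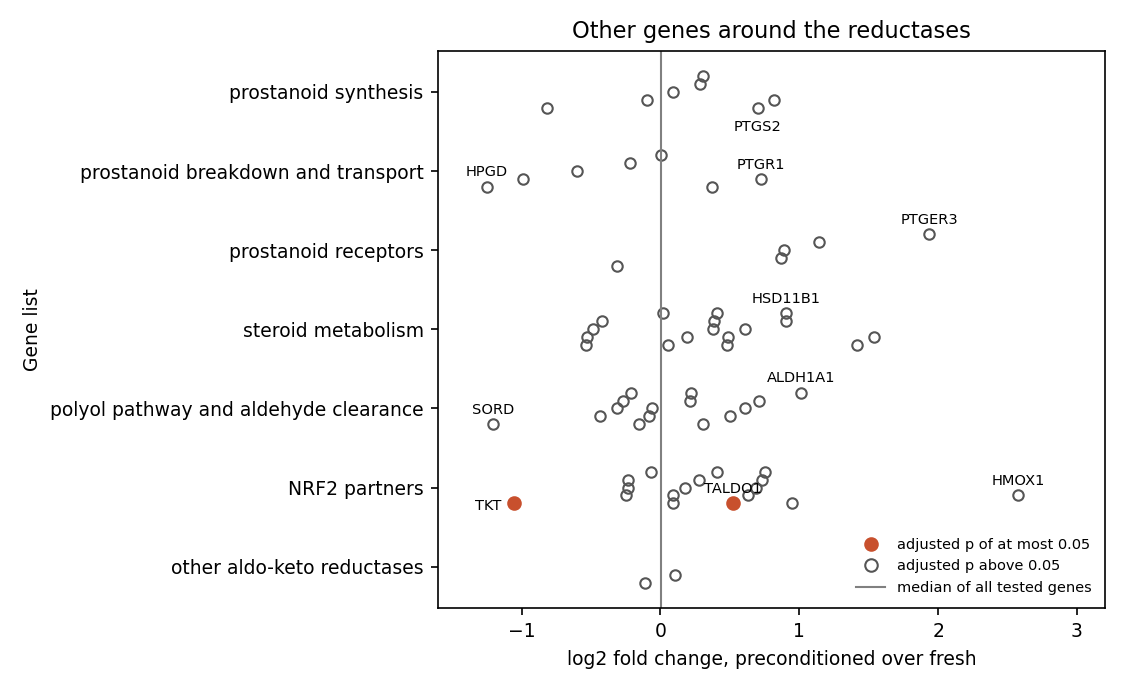
Log2 fold changes, preconditioned over fresh, of tested genes of the 7 pathway lists, with the members and 1 gene not reported here left out. Filled points mark an adjusted p no higher than 0.05, reached among the genes shown by TKT, which was lower, and TALDO1, which was higher, and the line marks the median of all tested genes.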

How the data were processed

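RNA-seq of rabbit primary LSCs was analysed in 3 fresh and 3 preconditioned libraries. Reads were aligned by the authors with hisat2 and counted per gene with htseq-count, and these raw counts were deposited. The authors' FPKM equalled each count divided by library total and by 1 length per gene. Genome build, strand setting and the treatment of reads with several matches were not given in the sources used here.

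Counts were filtered with filterByExpr, scaled by TMM and compared in edgeR 4.0.16 (R 4.3.3) by the robust quasi-likelihood test with condition as the only factor. Benjamini-Hochberg adjustment covered 15029 genes. The cutoffs were an adjusted p no higher than 0.05 and a log2 fold change of 1 or more in either direction. CPM values used TMM-scaled totals. Where counts were summed over copies, the fit was repeated with the copies added. Libraries held 31952352 to 34327534 counts, and the 13 untested members had at most 15 counts in any library. The fits were tested on simulated data.

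All members were counted, and those with at least 1 CPM in every library of a group were given in full. Not all of the others were named. From each pathway list the genes past the cutoffs, or otherwise the lowest, middle and highest, were named, with PTGS1, PTGS2, PTGES, HPGD, SORD and NQO1, and the 5 genes most like the member of highest mean CPM. Exceptions are marked in the text. Members and lists were chosen with earlier results of these data known. P values measure the spread between these libraries, which may be technical. Alternatives were DESeq2 1.42.0, other scalings and filters, a replicate block, leaving out each library, limma 3.58.1 on log2(FPKM + 1) and log2(FPKM + 0.1), and no fold change cutoff. A joint fit of all copies of a family was added after seeing the data. Listed genes absent from the table under their symbols, among them ALDH3A1, AKR7A2 and KRT12, were not analysed here. Among the genes that the naming rule or the lists would give, 2 are not reported here.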

Additional observations from a re-analysis of the deposited data

How the results depend on the processing

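The 344 genes past the cutoffs (47.4% of them higher) became 1202 with DESeq2, 565 with library size alone (25.1% higher), 590 with limma on log2(FPKM + 0.1) (23.9% higher), 763 without the fold change cutoff, and 14 to 1546 when 1 library was left out. The 6 members became 0 to 8 when 1 library was left out, and were 4 to 7 under the other scalings, filters and tests without the block. PGER4 no longer passed with library size alone or in either limma fit, LOC127491821 in either limma fit, and AKR1B10 without a filter on low counts. The 1 gene of the pathway lists became 7 with DESeq2, 2 with library size alone, 2 without a filter, 2 with the stricter filter, 2 with limma on log2(FPKM + 0.1), 3 without the fold change cutoff, and 0 to 6 when 1 library was left out. With the replicate block, 30 genes, 0 members and 0 list genes passed in edgeR, with 8 members and 20 list genes under an unadjusted p of 0.05. Same-numbered samples deviated with r of -0.073, -0.080 and -0.123, and 0 samples were closest to their own number. With 3 libraries per group this showed no pairing by replicate number but cannot exclude it.

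Library size alone moved the median log2 fold change of all genes from 0.01 to -0.16. It turned PGER5 to -0.12, as did limma on log2(FPKM + 1) at -0.11 and on log2(FPKM + 0.1) at -0.12. On log2 scales, the summed members went from 0.80 to 0.63 with library size alone, AKR1A1 from -0.02 to -0.19 and, in FPKM, -0.17, and the aflatoxin aldehyde reductases from 0.74 to 0.57 and, in FPKM, 0.49. Library size alone and FPKM leave out the TMM factors, which were 1.06 to 1.07 in fresh libraries and 0.914 to 0.965 in preconditioned libraries. No other cause of these changes was tested. The 13 members with few counts were not tested, and why their counts were low was not tested either.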
